A study of Mus musculus with 19 samples.

Results

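Experimental autoimmune encephalomyelitis (EAE) is a mouse model of multiple sclerosis in which immune cells enter the central nervous system. Here the resident macrophages of that tissue, the microglia, were set against the monocytes that infiltrate it. All 7 microglia libraries (4 shScrmbl and 3 shXbp1) were compared with all 4 monocyte libraries (2 shScrmbl and 2 shXbp1), 11 of the 19 libraries of the series. The genes compared were those whose symbol, letter case aside, stood in both deposited tables: 2718 of the 4125 genes named in either table, from 3067 in microglia and 3776 in monocytes.

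All mice were female C57Bl/6 of wild-type genotype at postnatal day 85 with EAE, induced by an injection of 25 µg of MOG35-55, a piece of a myelin protein, in CFA (complete Freund's adjuvant). Every mouse, controls included, had been transduced intracranially with a lentivirus that carried GFP and a short hairpin under a Gfap promoter, which is active mainly in astrocytes. The hairpin was either a scrambled control (shScrmbl) or directed at Xbp1 (shXbp1), so the virus was not aimed at microglia or monocytes and the series holds no library from a mouse without virus or without EAE. Cells were sorted by flow cytometry from 1 nervous system per mouse. The labels do not give the antibodies, nor whether a microglia and a monocyte library that share a number share a mouse. Libraries were made by 3′ digital gene expression, which counts the 3′ ends of transcripts.

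Microglia derive from the yolk sac and renew themselves in the tissue. They are known for a set of genes kept on by signals of the brain, among them Cx3cr1, P2ry12 and Tmem119. Monocytes come from the bone marrow, carry the chemokine receptor Ccr2 and the surface protein Ly6C, and in EAE become macrophages and antigen-presenting cells in the lesions. Both cell types are phagocytes and share much of their machinery for lysosomal digestion, antigen presentation and sensing.

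The libraries were shallow. Microglia libraries held 10039 to 122002 counts and monocyte libraries 15654 to 112676, and the shared genes held 96.9% to 98.0% of the former and 92.9% to 95.2% of the latter. Of the 2718 shared genes, 779 had enough counts to be tested by edgeR's quasi-likelihood test, in which cell type was fitted with the virus as a covariate and called genes had a Benjamini-Hochberg adjusted p under 0.05. Levels below are normalized counts scaled to a depth of 1000000 (counts per 1000000, CPM), and differences are log2 of monocytes over microglia, with the standard error (SE). Monocyte values are given in the order shScrmbl 1, shScrmbl 2, shXbp1 1, shXbp1 2, and microglia values as the lowest, median and highest of the 7. The 2 cell types came in separate tables whose lowest gene totals differed (15 counts in microglia and 9 in monocytes), so a difference between cell types and a difference between tables cannot be told apart. In sorted bulk RNA, fewer cells of a type and less RNA per cell cannot be told apart either.

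The sorted cells differed in 157 of the 779 tested genes (20.2%). Of these, 65 were higher in monocytes (8.34%) and 92 higher in microglia (11.8%). These are the shares to set beside the counts of list members called below. In 42 of the tested genes every monocyte library lay above every microglia library (5.39%), and in 47 every one lay below (6.03%). The median difference over the tested genes was 0.04. All 157 called genes had the same sign within the shScrmbl libraries as within the shXbp1 libraries, against 569 of the 779 tested genes. The calls came from a fit of these same libraries, which favours the same sign in both, so this is no separate support. When all 2718 shared genes were fitted with no filter on low counts, 175 were called (6.44%) and the split turned: 116 were higher in monocytes (4.27%) and 59 in microglia (2.17%). In that fit the genes tested before also sat higher in monocytes by a median of 0.18 on the log2 scale, through other scaling factors. With limma on the deposited signal, 17 genes were higher in monocytes and 45 in microglia. That fit did not scale the 2 tables together. In it 1 count was worth 9.11 to 76.0 units of signal, so 0 counts and 1 count lay far apart on its log2 scale.

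**Figure D1:**
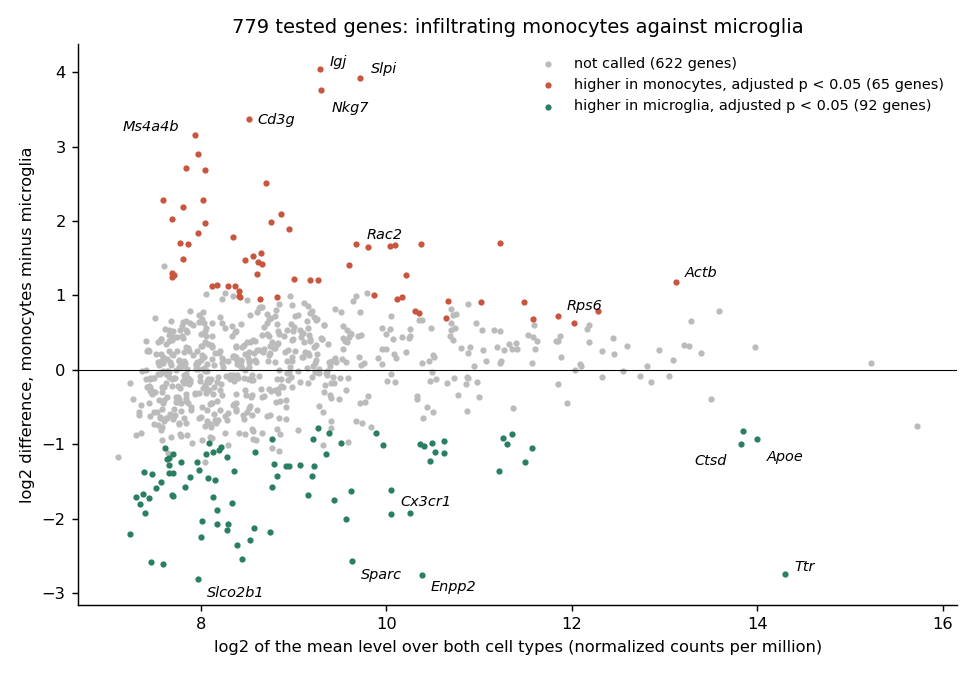
Each point is 1 of the 779 tested genes, with the log2 mean level of both cell types in CPM on the x axis and the log2 difference, monocytes minus microglia, on the y axis. The 65 genes higher in monocytes reach a difference of 4.04 (Igj), and the 92 genes higher in microglia include highly expressed ones such as Ttr (-2.75), Apoe and Ctsd.

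The first principal component of the tested genes held 35.8% of the variance and separated the cell types, with microglia between -18.3 and -0.31 and monocytes between 10.98 and 20.2. Microglia shScrmbl 2 and 3 lay nearest to the monocytes, and monocyte shXbp1 1 stood apart from the other 10 libraries on the second component, at -21.1. Left out 1 at a time, the libraries moved the count of genes higher in monocytes between 36 and 73 and that of genes higher in microglia between 52 and 88. The lowest counts came without monocyte shScrmbl 1 (36 and 52). Counts fell by over 1.5 times in at least 1 direction also without microglia shXbp1 3 (40 and 59), without microglia shScrmbl 3 (43 and 63) and without monocyte shXbp1 2 (48 and 55). Of the 157 called genes, 124 had enough counts to be tested without each of the 11 libraries, and 61 were called each time. None changed direction.

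Xbp1 encodes a factor that turns on genes for protein folding under stress of the endoplasmic reticulum (chr11:5520659-5525893 of GRCm38, plus strand, protein coding). It was the target of the hairpin in astrocytes and had too few counts to enter the test, 18 in all microglia libraries and 41 in all monocyte libraries. Its level was 0, 56.7 and 97.8 CPM in microglia, and 130, 193, 372 and 109 CPM in monocytes. Every monocyte library lay above every microglia library. In the edgeR fit of all shared genes the difference of Xbp1 was 1.73 (adjusted p = 0.016). The part of plasma cells, whose gene Igj was also higher in the monocyte libraries (below), in this difference was not tested.

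Genes of resident microglia were higher in the microglia libraries. Of 30 genes listed for microglia identity, 21 stood in both tables, 18 were tested and 16 were called higher in microglia, with none higher in monocytes. Over all tested genes 11.8% were higher in microglia. The members of this and the other lists were chosen with earlier results of these data known, so their counts are no independent support. Over the 21, the median difference in the fit of all shared genes was -1.68, against 0.08 over all 2718 genes, and all 21 were negative. The summed counts of the listed genes made up 1.19% to 2.82% of microglia libraries and 0.386% to 0.747% of monocyte libraries, so the groups did not overlap and the sum was not near 0 in the monocytes.

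Cx3cr1 encodes the fractalkine receptor (chr9:119901616-120069879 of GRCm38, minus strand). Its lowest, median and highest levels were 1176, 1720 and 2621 CPM in microglia, against 304, 462, 497 and 470 CPM in monocytes. The highest monocyte library thus stayed below the lowest microglia library, and the difference was -1.93 ± 0.27 (SE, edgeR adjusted p = 2.31e-05). P2ry12, the purinergic receptor that guides microglial processes to damage, stood at 196, 626 and 1078 CPM in microglia and at 101, 67.4, 62.1 and 217 CPM in monocytes. Here monocyte shXbp1 2 reached into the microglia range, and the difference was -2.28 (adjusted p = 0.000755). Tmem119, a surface protein that marks microglia, had 170, 471 and 1068 CPM against 72.4, 164, 0 and 90.5 CPM, with no overlap and a difference of -2.08 (adjusted p = 0.000983).

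Sparc, a matricellular protein, had 800, 1429 and 1758 CPM in microglia and 174, 173, 621 and 109 CPM in monocytes, a difference of -2.56 ± 0.37 (adjusted p = 2.86e-05). Monocyte shXbp1 1 was the high one of the 4. Slco2b1, an organic anion transporter, showed the largest fold among the genes higher in microglia with at least 3 counts in the monocytes, 7.03-fold (-2.81 ± 0.49, adjusted p = 0.000257). The sialic acid-binding receptor Siglech (-2.12), the integrin subunit Itgb5 (-2.18), the receptor for colony-stimulating factor 1 (Csf1r, -1.61) and the transcription factor Mef2c (-2.04) were also called, Siglech and Itgb5 with no overlap between the groups.

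**Figure D2:**
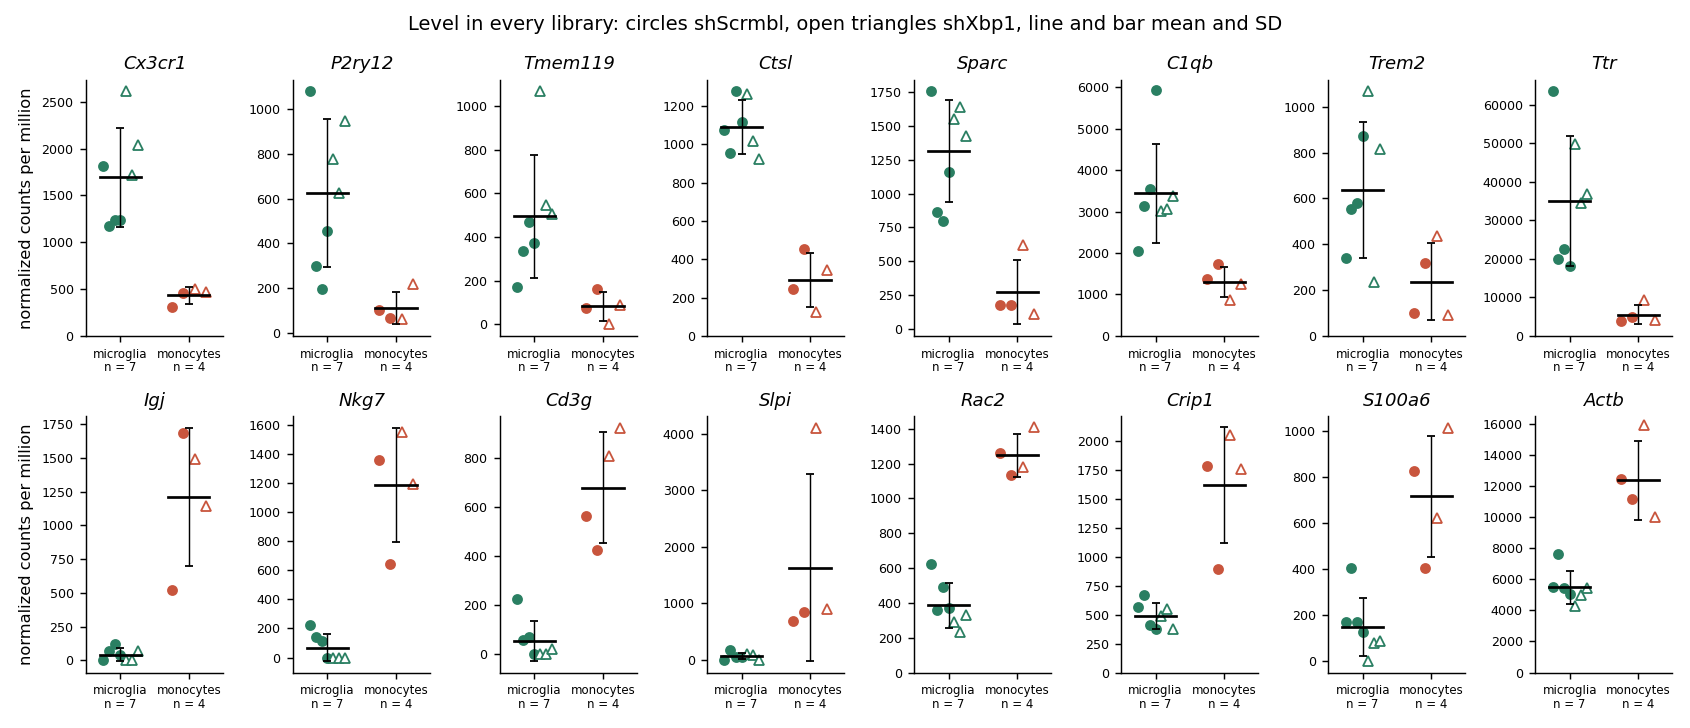
Levels in normalized CPM of 16 genes in each of the 7 microglia and 4 monocyte libraries, with the mean and SD. In the top row Cx3cr1, Tmem119, Ctsl, Sparc, C1qb and Ttr were higher in every microglia library than in every monocyte library while P2ry12 and Trem2 overlapped, and in the bottom row all 8 genes were higher in every monocyte library.

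Ptgs1, the constitutive cyclooxygenase, was at 346, 547 and 679 CPM in microglia and at 130, 135, 62.1 and 72.4 CPM in monocytes (4.43-fold, adjusted p = 0.000156). Hpgds, a prostaglandin D synthase, and Ltc4s, the leukotriene C4 synthase, were higher in microglia by 5.12-fold and 5.98-fold. The tetraspanin Cd81 differed by -2.01 ± 0.28 (adjusted p = 2.31e-05), the fatty acid receptor Gpr84 by -2.25, and Srgap2, a regulator of the actin cytoskeleton, by -2.61. For all 6 of these genes the groups did not overlap, but they were named for a small p or a large fold in this same fit. Over all tested genes 6.03% lay lower in every monocyte library.

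Complement and lysosomal genes followed. All 3 subunits of C1q, which starts the classical complement pathway, were higher in microglia with no overlap. C1qb had 2042, 3124 and 5927 CPM in microglia and 1375, 1743, 869 and 1249 CPM in monocytes (-1.36 ± 0.27, adjusted p = 0.000805), C1qc differed by -1.22 and C1qa by -1.42. Of the 10 complement genes in both tables, 7 were tested and 4 called, all higher in microglia, and the fourth was Itgam (-0.93), which encodes CD11b. The call of Itgam was lost without any 1 of 6 libraries, microglia shScrmbl 1, shXbp1 1 or shXbp1 2, or monocyte shScrmbl 1, shXbp1 1 or shXbp1 2 (adjusted p up to 0.109).

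Of 28 lysosomal proteases and hydrolases in both tables, 24 were tested and 8 called higher in microglia, with none higher in monocytes. The median over the 28 was -0.08 in the fit of all shared genes, where 2 were called higher in microglia and none in monocytes. The cathepsin gene Ctsl was called without overlap (923, 1078 and 1280 CPM in microglia, against 246, 452, 124 and 344 CPM in monocytes, -1.75, adjusted p = 0.000156). Ctsd, the aspartic protease cathepsin D, overlapped between the groups: 13007, 20062 and 25616 CPM in microglia and 10350, 13344, 7324 and 7311 CPM in monocytes (-0.99, adjusted p = 0.00257). Ctss, the cathepsin that trims the invariant chain of MHC class II, was not called (-0.39, adjusted p = 0.233). In the fit of all shared genes Ctsd (adjusted p = 0.13) and the tetraspanin Cd63 (-1.11 in the filtered fit, and adjusted p = 0.076 in the fit of all genes) were not called.

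Disease-associated microglia genes are those that microglia raise around plaques and lesions, and many are also expressed by macrophages. Of the 23 in both tables, 21 were tested, 9 were higher in microglia and 12 not called, and the median over the 23 was -0.29. In the fit of all shared genes 3 were higher in microglia, Trem2 and Ctsl among them. Trem2, a lipid-sensing receptor, had 235, 578 and 1068 CPM in microglia and 101, 318, 434 and 90.5 CPM in monocytes, where 2 libraries lay in the microglia range (-1.57 ± 0.42, adjusted p = 0.0104). The Trem2 call was lost without monocyte shScrmbl 1 (adjusted p = 0.07). Apoe, the main apolipoprotein of the brain, overlapped widely: 6892, 20361 and 32106 CPM in microglia, and 10784, 21026, 5400 and 8378 CPM in monocytes (-0.93, adjusted p = 0.0418). Its call was lost without any 1 of 7 libraries, monocyte shScrmbl 1, shXbp1 1 or shXbp1 2, or microglia shScrmbl 3, shScrmbl 4, shXbp1 2 or shXbp1 3 (adjusted p up to 0.159), and in the fit of all shared genes (0.18).

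Promoters of the genes higher in microglia were searched for GAGGAAG, a form of the binding motif of PU.1, the ETS factor that myeloid cells depend on, and for the AP-1 motif TGAGTCA or TGACTCA. Both strands of the 250 bases before each RefSeq gene start were read on GRCm38.p6, and the motifs do not overlap. The PU.1 motif stood in 16 of the 75 promoters found for genes higher in microglia (21.3%), in 7 of 47 for genes higher in monocytes (14.9%), in 77 of 627 for all tested genes (12.3%) and in 2807 of all 27025 promoters (10.4%). The AP-1 motif stood in 0 of 75, 2 of 47, 24 of 627 and 1197 of 27025. These are counts of letters, with no test. The promoters of 3 genes higher in microglia and 1 gene higher in monocytes are printed to show where the motif lies in front of genes that differ between these cells, 5′ to 3′ on the gene's strand with the motif, or its reverse complement, in capitals. They are chr2:36230176-36230425 (Ptgs1), chr17:48346151-48346400 (Trem2), chr7:128062390-128062639 (Itgam) and chr6:48684328-48684577 (Gimap4), all on the plus strand.
Ptgs1: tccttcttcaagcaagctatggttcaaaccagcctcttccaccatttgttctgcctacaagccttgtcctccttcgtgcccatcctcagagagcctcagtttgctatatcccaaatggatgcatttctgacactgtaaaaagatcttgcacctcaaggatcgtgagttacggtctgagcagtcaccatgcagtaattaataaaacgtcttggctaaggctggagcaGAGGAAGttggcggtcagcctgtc
Trem2: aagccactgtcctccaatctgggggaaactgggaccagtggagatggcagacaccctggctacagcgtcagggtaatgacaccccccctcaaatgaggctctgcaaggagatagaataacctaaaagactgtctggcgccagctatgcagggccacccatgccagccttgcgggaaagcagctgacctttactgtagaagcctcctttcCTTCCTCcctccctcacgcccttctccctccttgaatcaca
Itgam: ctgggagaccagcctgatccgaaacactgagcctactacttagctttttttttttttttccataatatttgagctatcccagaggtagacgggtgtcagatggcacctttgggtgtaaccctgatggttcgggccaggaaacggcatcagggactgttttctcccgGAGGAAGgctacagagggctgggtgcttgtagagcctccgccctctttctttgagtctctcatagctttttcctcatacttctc
Gimap4: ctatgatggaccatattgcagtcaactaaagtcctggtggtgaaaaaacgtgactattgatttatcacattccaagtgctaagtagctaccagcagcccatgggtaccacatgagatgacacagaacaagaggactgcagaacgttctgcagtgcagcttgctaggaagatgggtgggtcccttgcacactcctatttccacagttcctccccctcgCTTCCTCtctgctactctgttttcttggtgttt
In these promoters the motif begins 24 bases before the start of Ptgs1, 41 before Trem2, 84 before Itgam and 33 before Gimap4. The promoters of Cx3cr1, Sparc and Ctsl held neither motif in this window.

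The leading genes of the monocyte libraries were those of T cells, NK cells and plasma cells. Igj, now named Jchain, is the joining chain of antibodies secreted by plasma cells (chr5:88519809-88527891 of GRCm38, minus strand). It had 0, 41.4 and 124 CPM in microglia and 521, 1685, 1490 and 1140 CPM in monocytes, the largest fold among the tested genes, 16.4-fold (4.04 ± 0.43, adjusted p = 1.26e-06). Nkg7, a granule protein of NK and cytotoxic T cells, had 0, 0 and 227 CPM against 1361, 645, 1552 and 1194 CPM (3.76 ± 0.48, adjusted p = 1.56e-05). Cd3g, a chain of the T cell receptor complex, had 0, 22.0 and 227 CPM against 565, 424, 807 and 923 CPM (3.37 ± 0.45, adjusted p = 1.56e-05). In all 3 genes every monocyte library lay above every microglia library, as in 5.39% of all tested genes, but they were named for their small p in this same fit. In microglia libraries 1 count was worth 8.89 to 97.1 CPM, so a level of 0 there is a matter of few counts.

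The list of T, NK and B cell markers held 29 genes, of which 8 stood in both tables and 6 were tested. All 6 were higher in monocytes with no overlap, namely Cd3g, Nkg7, Ms4a4b (3.16), Cd2 (2.72), Cd8b1 (2.69) and Cd3d (2.51), and all 8 had a positive difference, with a median of 2.84. A further 10 were in the monocyte table alone and none in the microglia table alone. Among those 10 were Lck, the kinase of the T cell receptor (444, 435, 575 and 283 CPM over all genes of the table), the granzyme gene Gzma and Thy1. The 18 listed genes of the monocyte table made up 0.415% to 0.760% of the counts of monocyte libraries. The 8 of the microglia table made up 0.0299% to 0.117% of microglia libraries. Over the same 8 genes, the sums were 0.300% to 0.605% of shared gene counts in monocytes and 0.0309% to 0.121% in microglia. Gimap4, a GTPase of lymphocytes (2.91), Hcst, the adaptor of the NKG2D receptor (1.97), and Cxcr6, a chemokine receptor of T and NK cells (2.03), lay outside the list and were also called.

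**Figure D3:**
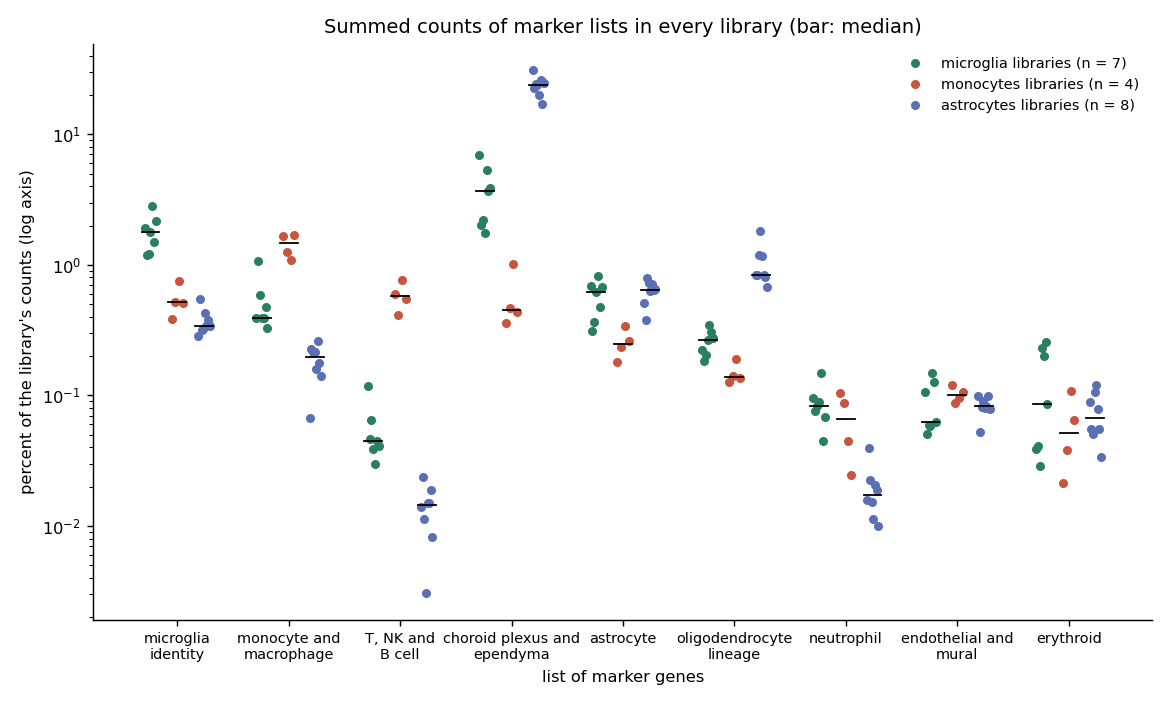
Summed counts of 9 marker lists as a percent of each library's counts on a log axis, for 7 microglia, 4 monocyte and 8 astrocyte libraries, with the median as a bar. Each sum covers the listed genes of that cell type's own table, so the genes summed differ between cell types. Markers of T, NK and B cells lie at 0.415% or above in every monocyte library and at 0.117% or below in every microglia library, and markers of choroid plexus and ependyma lie highest in the astrocyte libraries and higher in microglia than in monocytes.

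Genes known from monocytes and young macrophages were higher in the monocyte libraries. The part of the T, NK and B cell markers, which led in the same libraries, in the differences of these genes and of those in the next paragraph was not tested. Of 35 listed, 27 stood in both tables, 14 were tested and 9 were called, all higher in monocytes. The median over the 27 was 1.58, 26 of them were positive, and 21 were called higher in monocytes in the fit of all shared genes. The defining receptor Ccr2 had too few counts for the filter: 0, 56.7 and 161 CPM in microglia and 507, 241, 124 and 181 CPM in monocytes, a difference of 2.07 in the fit of all shared genes (adjusted p = 0.00022). Ly6c2, whose reads can be shared with its near copy Ly6c1, stood at 0, 56.7 and 80.7 CPM against 333, 193, 310 and 217 CPM, with no overlap (2.42, adjusted p = 5.07e-05 in the same fit). Plac8, another gene of Ly6C-high monocytes, differed by 2.90 in that fit. The 32 listed genes of the monocyte table made up 1.09% to 1.68% of the counts in monocyte libraries. The 27 of the microglia table made up 0.331% to 1.07% in microglia libraries, where microglia shScrmbl 2 was the highest. Over the same 27 genes, the sums were 1.093% to 1.727% of shared gene counts in monocytes and 0.339% to 1.092% in microglia.

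Rac2, a small GTPase of blood cells, had 235, 357 and 624 CPM in microglia and 1259, 1136, 1179 and 1411 CPM in monocytes, with no overlap (1.69 ± 0.26, adjusted p = 8.61e-05). Crip1, a LIM-domain protein, had 373, 485 and 669 CPM against 1781, 895, 2048 and 1755 CPM (1.67, adjusted p = 0.000156). Slpi, an inhibitor of leukocyte proteases, rested in part on 1 library: 0, 53.3 and 173 CPM in microglia and 680, 838, 4096 and 887 CPM in monocytes, with monocyte shXbp1 1 at the high value. Its difference was 3.92 ± 0.58 (adjusted p = 0.000123), and over the fits that left out 1 library each it lay between 3.40 and 4.81. Cd44, the hyaluronan receptor (1.69), and Thbs1, the matrix protein thrombospondin 1 (1.84), were called with no overlap, while Vim, the intermediate filament gene vimentin (1.20), overlapped. The call of Vim was lost without microglia shScrmbl 3 or shXbp1 3 or monocyte shScrmbl 1 or shScrmbl 2 (adjusted p up to 0.0814).

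Calcium-binding and actin genes were among those higher in monocytes, and the part of the T, NK and B cell markers in this was not tested. Of 14 S100 and annexin genes in both tables, 6 were tested and 5 were higher in monocytes, with a median of 1.31 over the 14. S100a6 had 0, 124 and 403 CPM in microglia and 825, 404, 621 and 1013 CPM in monocytes, so that microglia shScrmbl 2 came close to monocyte shScrmbl 2 (1.99, adjusted p = 0.00141). S100a10 (2.09) and Anxa6 (2.28) were also called with no overlap. Anxa2 (1.45, adjusted p = 0.0102) overlapped and lost its call without microglia shXbp1 3 or monocyte shScrmbl 1 (adjusted p up to 0.0656).

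Of 25 genes of actin turnover and motility in both tables, 16 were tested and 9 were higher in monocytes, with none higher in microglia and a median of 0.91 over the 25. Beta-actin (Actb) had 4271, 5422 and 7642 CPM in microglia and 12435, 11178, 15889 and 9989 CPM in monocytes, with no overlap (1.18 ± 0.22, adjusted p = 0.0005). Lsp1, an actin-binding protein of leukocytes, differed by 1.90, Tagln2 by 1.42 and gamma-actin (Actg1) by 0.93. Actin genes have many processed pseudogenes, and how shared reads were assigned is not given in the sources used here. These genes are expressed by lymphocytes too, and the part of the T, NK and B cell markers in their difference was not tested.

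**Figure D4:**
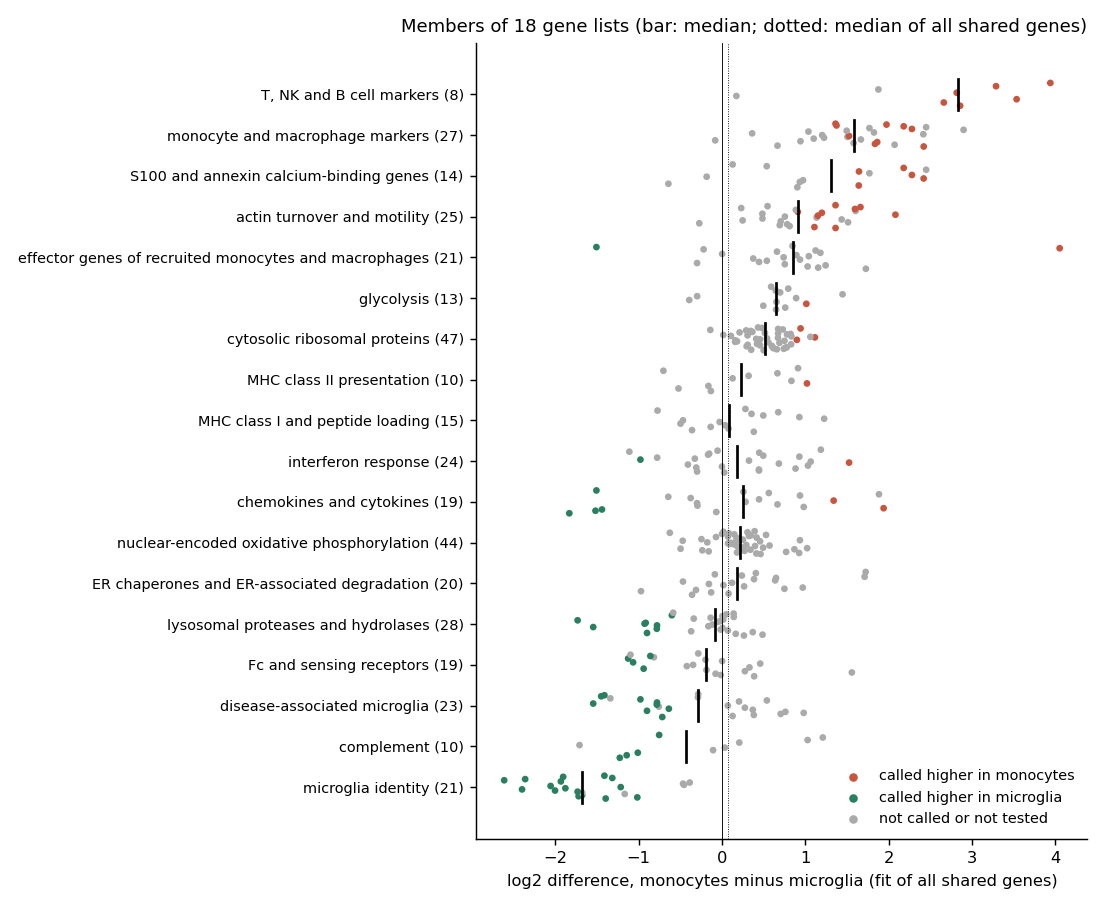
The x axis is the log2 difference, monocytes minus microglia, in the fit of all shared genes, and each row is a gene list with its number of members in both tables, each point a member and each bar the list's median. Medians run from 2.84 for T, NK and B cell markers and 1.58 for monocyte and macrophage markers to -1.68 for microglia identity, against 0.08 for all shared genes.

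The count of effector genes of recruited macrophages that passed depended on the filter. Of 21 in both tables, 16 were tested, 1 was higher in monocytes (Slpi) and 1 in microglia, the cytokine Tnf, while the median over the 21 was 0.85 and 18 were positive. In the fit of all shared genes 6 were higher in monocytes and 1 in microglia. Tnf had 92.2, 290 and 485 CPM in microglia and 101, 57.8, 124 and 18.1 CPM in monocytes (-1.67, adjusted p = 0.0257), and its call was lost without monocyte shScrmbl 2 or shXbp1 2 (adjusted p up to 0.113). Lysozyme, the secreted enzyme of phagocytes, was spread over a wide range within each group. Lyz1 had 2136, 8331 and 22627 CPM in microglia and 20729, 21671, 4531 and 13753 CPM in monocytes (0.79 ± 0.42, adjusted p = 0.217), and its neighbour Lyz2, which can share reads with it, differed by 0.65 (adjusted p = 0.262). Neither was called with the filter, but both were in the fit of all shared genes (adjusted p = 0.017 for Lyz1 and 0.046 for Lyz2). The scaling of that fit moved the tested genes toward monocytes by a median of 0.18. Cybb, which encodes the gp91phox chain of the oxidase that makes superoxide, had 194, 373 and 1510 CPM against 1245, 1483, 372 and 525 CPM and was not called (0.77, adjusted p = 0.0997).

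Chemokine genes went both ways. Of 19 chemokine and cytokine genes in both tables, 13 were tested, 4 were higher in microglia and 2 in monocytes, against 4 and 4 in the fit of all shared genes. Ccl4, an inflammatory chemokine, had 450, 1031 and 2814 CPM in microglia and 246, 404, 434 and 489 CPM in monocytes (-1.63, adjusted p = 0.00762), and its neighbour Ccl3 differed by -1.69 (adjusted p = 0.0161). The call of Ccl4 was lost without monocyte shXbp1 2 (adjusted p = 0.0627) and that of Ccl3 without monocyte shScrmbl 1 (adjusted p = 0.0915). Ccl12, a ligand of CCR2, had 196, 497 and 971 CPM in microglia and 43.4, 77.0, 0 and 326 CPM in monocytes (-2.08, adjusted p = 0.00267). Ccl5, which T and NK cells also make in quantity, went the other way, with 397, 911 and 2611 CPM in microglia against 3648, 2465, 4531 and 4017 CPM in monocytes (1.71, adjusted p = 0.00257).

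Of 19 Fc and sensing receptors, which recognise antibody and microbes, in both tables, 11 were tested and 4 were higher in microglia, with none higher in monocytes and a median of -0.20 over the 19. In the fit of all shared genes 1 was called in each direction, Sirpa higher in microglia and the lectin receptor gene Clec4n, named after its value was seen, higher in monocytes (1.56, adjusted p = 0.0382). Sirpa, the receptor for the CD47 signal that restrains phagocytosis, had 469, 594 and 829 CPM in microglia and 304, 433, 186 and 90.5 CPM in monocytes (-1.27, adjusted p = 0.00656). Ly86, the partner of a Toll-like receptor homologue, differed by -1.29 and the high-affinity Fc receptor gene Fcgr1 by -1.12, all 3 with no overlap. Fcgr1 lost its call without monocyte shScrmbl 2 (adjusted p = 0.0783), and in the fit of all shared genes Ly86 (adjusted p = 0.055) and Fcgr1 (0.19) were not called.

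Of 10 MHC class II genes in both tables, 7 were tested and only H2-Aa was called, higher in monocytes. Its levels were 1359, 3913 and 5813 CPM in microglia and 7339, 6133, 4407 and 6949 CPM in monocytes (0.79 ± 0.25, adjusted p = 0.0246), and the call was lost without microglia shXbp1 1 or shXbp1 3 or monocyte shScrmbl 1 or shXbp1 2 (adjusted p up to 0.0808). H2-Ab1 (0.63, adjusted p = 0.143) and H2-Eb1 (0.49, adjusted p = 0.345) were not called. Of 15 MHC class I and peptide loading genes in both tables, 12 were tested, of which edgeR and DESeq2 called 0, and 2 had an unadjusted p under 0.05 by edgeR. The fit of all shared genes called 1 of the 15, higher in monocytes. In that list B2m, the light chain, differed by 0.13 ± 0.24 (adjusted p = 0.777) and H2-D1 by -0.33 ± 0.25 (adjusted p = 0.381). Of the 8 interferon response genes tested, of 24 in both tables, 1 was called in each direction, against 2 higher in monocytes and none in microglia in the fit of all shared genes. Over all tested genes, with the filter, 8.34% were higher in monocytes and 11.8% in microglia. The gene called higher in monocytes with the filter was Ifitm3, an antiviral membrane protein, with 388, 572 and 1072 CPM in microglia and 1983, 809, 1117 and 2877 CPM in monocytes (1.28, adjusted p = 0.0116). Ifitm3 lost its call without monocyte shScrmbl 1 or shXbp1 2 (adjusted p up to 0.0767).

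Genes of basic cell functions were also listed. Over all tested genes edgeR called 8.34% higher in monocytes and 11.8% higher in microglia. Of the 37 tested genes of nuclear-encoded oxidative phosphorylation edgeR called 0 and DESeq2 1, and 5 had an unadjusted p under 0.05 by edgeR. The medians were -0.01 over those tested and 0.22 over all 44 in both tables, and Atp5h (0.55, adjusted p = 0.143) and Cox4i1 (-0.69, adjusted p = 0.0684) were among those tested. Of 46 tested ribosomal protein genes 3 were called, all higher in monocytes, a share no larger than the 8.34% of all tested genes. The median over those tested was 0.28. In the fit of all shared genes 46 of the 47 in both tables were positive, with a median of 0.52. The scaling of that fit moved the tested genes toward monocytes by a median of 0.18. Rpl8 had 971, 1564 and 1758 CPM in microglia and 2562, 2224, 3352 and 2769 CPM in monocytes (0.91, adjusted p = 0.00733), and Rps6 differed by 0.73 (adjusted p = 0.0174), a call that was lost without monocyte shScrmbl 1 (adjusted p = 0.069). Ribosomal protein genes have many pseudogenes that can share their reads. Of 9 tested glycolysis genes only Gapdh was called (0.79, adjusted p = 0.0476), and the call was lost without any 1 of 9 libraries, all but microglia shScrmbl 2 and monocyte shScrmbl 2. The fit of all shared genes called 2 of the 13 glycolysis genes in both tables, both higher in monocytes. Of the 8 tested genes of ER chaperones and ER-associated degradation, targets of Xbp1 among them, edgeR and DESeq2 called 0, with 0 at an unadjusted p under 0.05. In the fit of all shared genes 2 of the 20 in both tables were higher in monocytes, Xbp1 itself, which is on the list, and Sec61b, a subunit of the translocon, named after its value was seen (1.71, adjusted p = 0.0258). The chaperone gene Hspa5 differed by -0.36 (adjusted p = 0.401). Of the 4 tested cell cycle genes both tools called 0, with 1 at an unadjusted p under 0.05 by edgeR, and Hmgb2 was at 0.54 (adjusted p = 0.148). The ferritin light chain gene Ftl1 had 22229, 30265 and 59189 CPM in microglia and 47003, 49986, 17006 and 41004 CPM in monocytes and was not called (0.09, adjusted p = 0.865).

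Genes of other cells also differed between the sorts. Ttr, which encodes transthyretin and is a leading transcript of the choroid plexus, had the smallest p among the genes higher in microglia. It stood at 18072, 34566 and 63466 CPM in microglia and at 3691, 4785, 9186 and 4162 CPM in monocytes (-2.75 ± 0.36, adjusted p = 1.56e-05). Enpp2, another choroid plexus gene, had 539, 1456 and 6012 CPM in microglia and 188, 318, 683 and 326 CPM in monocytes (-2.76 ± 0.56, adjusted p = 0.00249). Of 19 markers of choroid plexus and ependyma, 5 stood in the microglia table, 2 in the monocyte table and 18 in the astrocyte table. Those of each table made up 1.75% to 6.93% of microglia libraries and 0.361% to 1.02% of monocyte libraries. In the astrocyte libraries of the same series they made up 17.1% to 31.0%. Over the 2 shared by microglia and monocytes, the sums were 1.78% to 7.04% and 0.382% to 1.09% of shared gene counts. Of 24 astrocyte markers, 9 stood in the microglia table, 7 in the monocyte table, 6 in both and 20 in the astrocyte table. Those of each table made up 0.314% to 0.817% of microglia libraries and 0.182% to 0.339% of monocyte libraries. The astrocyte libraries themselves held 0.375% to 0.796%. Over the 6 in both tables the sums were 0.306% to 0.782% of shared gene counts in microglia and 0.190% to 0.357% in monocytes. Of 3 tested, 2 were higher in microglia, Cst3 (-1.23, adjusted p = 0.0021) and Glul (-1.39, adjusted p = 0.031). Cst3 is also highly expressed by microglia and is on the microglia identity list too. Scaled over the genes in all 3 tables, its mean was 4023 CPM in microglia, 1861 in monocytes and 1090.5 in astrocytes. The summed list is thus not a measure of astrocyte RNA alone. The part of these markers in the differences of other genes was not tested. Glul lost its call without monocyte shScrmbl 1 or shXbp1 2 (adjusted p up to 0.097).

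Genes in all 3 tables could be set beside the astrocyte libraries. Each of the 19 libraries was scaled to its total over these genes, with no further factor. Of the 92 genes higher in microglia, 82 had their highest mean in microglia and 10 in astrocytes, Ttr, Enpp2 and Trf, the transferrin gene, among them. Of the 65 genes higher in monocytes, 57 were in all 3 tables, and in all 57 the mean was highest in monocytes. On this scale Ttr alone had a mean of 254975 CPM in astrocytes, against 35293 in microglia and 5794 in monocytes, which lowers their other values. Some means were close, such as Cd63 (2144 CPM in microglia, 1698 in astrocytes) and Gapdh (1645 CPM in monocytes, 1530 in astrocytes). These counts therefore depend on the scale, and another was not tested. When the markers of T, NK and B cells, choroid plexus and astrocytes were left out before scaling, 752 genes were tested, with 59 higher in monocytes and 86 in microglia.

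Neutrophil markers were low in both sorts, at 0.0450% to 0.149% of microglia libraries and 0.0247% to 0.104% of monocyte libraries. The only one tested, Csf3r, the receptor for the granulocyte growth factor G-CSF, was higher in microglia (227, 284 and 874 CPM against 130, 202, 62.1 and 0 CPM, -1.44, adjusted p = 0.0376). Its call was lost without microglia shXbp1 1 or monocyte shScrmbl 1, shXbp1 1 or shXbp1 2 (adjusted p up to 0.144). Mast cell and basophil markers, 3 of 12, were in the microglia table alone: Prss34, Cma1 and Mcpt8, together 0.0213% to 0.105% of the microglia libraries.

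Genes in a single table could not be tested, since a gene not listed in a table may have been removed there by a filter. The microglia table held 344 such genes, with 1.94% to 3.07% of its counts, and that of the monocytes 1058, with 4.75% to 7.08% of its counts. The lowest gene total was 15 counts in the microglia table and 9 in the monocyte table. Of the microglia identity list 8 genes were in the microglia table alone and none in the monocyte table alone. They included the purinergic receptor gene P2ry13 (75.1 to 271 CPM over all genes of the table), the phagocytic receptor gene Mertk (55.9 to 299 CPM) and Sall1 (21.6 to 225 CPM), a transcription factor that among brain macrophages is known from microglia. Of the monocyte and macrophage list 5 genes were in the monocyte table alone and none in the microglia table alone, and these included the integrin subunit gene Itga4.

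Whether the difference between the cell types itself differed between shScrmbl and shXbp1 mice was tested as an interaction. No tested gene passed: 0 of 779 by edgeR (0%), with 43 at an unadjusted p under 0.05 where 39 would be expected, and a smallest adjusted p of 0.493. DESeq2 also called 0. In the fit of all 2718 shared genes 2 passed, both chemokine genes of low counts, which were looked at after their values were seen. Ccl2 had 0, 41.4 and 231 CPM in microglia and 57.9, 19.3, 62.1 and 326 CPM in monocytes (interaction 6.31, adjusted p = 0.00178), and Ccl17 had 0, 97.1 and 249 CPM against 72.4, 67.4, 372 and 1013 CPM (4.26, adjusted p = 0.0114). In both, monocyte shXbp1 2 was the highest of the 4 monocyte libraries.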

How the data were processed

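For each of the cell types the authors deposited a table of normalized signal values, genes in rows and libraries in columns. Per the submitters' processing notes, BWA 0.7.10, limma 3.34.1 and build mm10 were used, in roles that are not stated. The counter, the annotation and any filter on low genes are not given in the sources used here. Within a library every deposited signal above 0 was a multiple of 1 step (100% of values within 0.01 of a whole count), so counts were recovered. The labels do not tell reads from molecules, and p-values measure the spread between these libraries.

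Symbols were matched ignoring letter case, and 5 microglia names turned into dates or serial numbers stayed unmatched. The 11 libraries were scaled together (trimmed mean of M-values) and fitted with edgeR 4.0.16 (quasi-likelihood test, R 4.3.3), virus as covariate, after edgeR's filterByExpr filter. limma 3.58.1 and DESeq2 1.42.0 gave second tests, and Python 3.11.15, numpy 2.4.6, pandas 2.3.3 and matplotlib 3.10.9 did the rest. Although the deposited unit is a signal, the count test is the main one because whole counts could be recovered, and limma on log2(signal + 1) is the alternative. That alternative did not scale the 2 tables together. The test was tested on simulated data for this comparison, 5 simulations of about 774 genes: it recovered 62.9% of genes changed 2-fold and 100% of those changed 4-fold, and 3.3% of its calls were false. The simulations gave every gene the same spread between replicates and held no virus effect and no outlying library. Their rates need not hold for the libraries here. Lists were described by counts and medians, without a test.

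Named genes were Xbp1, the 12 with the smallest adjusted p in each direction, the 6 with the largest fold in each direction with at least 3 counts in the lower group, and up to 4 members per list. Of these, 1 gene is not reported here. Others that the text names were chosen after their values were seen. The members and lists were chosen with earlier results of these data known. Same-numbered microglia and monocyte libraries were treated as unpaired, since the labels do not state a pairing. Gene positions come from GENCODE M21 (GRCm38) and promoters from RefSeq (GRCm38.p6). No 2 libraries agreed within sampling noise: the chi-square per gene between replicates was 1.68 to 5.02.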

Additional observations from a re-analysis of the deposited data

Results flagged for a closer look

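Groups of library values were examined for the genes and lists the text names, in 7 microglia or 4 monocyte libraries. Of 249 groups, 21 held a library that stood far from the rest of its group by Dixon's test. Chance would give about 1 in 20, or 12, if values were normal and groups independent. Many levels rest on few counts, and lists were examined beside their own members, so 21 cannot be weighed against 12.

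Monocyte shXbp1 1 stood apart in 3. It held Slpi at 4096 CPM, where the next library had 887, Sparc at 621 CPM (next 174), and choroid plexus and ependyma markers at 1.02% of its counts (next 0.470%). Without this library 73 genes were higher in monocytes and 78 in microglia. In monocyte shXbp1 2, Ccl2 was at 326 CPM (next 62.1) and the MHC class I list at 1.88% (next 1.49%). In monocyte shScrmbl 2, the matrix protein gene Thbs1 was at 741 CPM (next 308).

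Microglia shScrmbl 1 was the highest of the 7 in T cell genes, with Cd3g at 227 CPM (next 71.1), Cd8b1 at 227 CPM (next 97.1) and the T, NK and B cell markers at 0.117% of counts (next 0.0648%), and also in Enpp2, at 6012 CPM (next 2737). Microglia shScrmbl 2 was the highest in S100a6 at 403 CPM (next 170), in Lgals1 at 1406 CPM (next 578), in Clec4n at 161 CPM (next 56.7), in Actb at 7642 CPM (next 5502), in the monocyte and macrophage markers at 1.07% (next 0.590%) and in the glycolysis list at 0.884% (next 0.602%). S100a6, Lgals1 and Actb were among the genes called higher in monocytes, and this library was also the nearest to the monocytes on the first principal component. Microglia shXbp1 1, the shallowest library, was the highest in Tmem119 at 1068 CPM (next 547), in Csf1r at 2815 CPM (next 1824), in Csf3r at 874 CPM (next 440) and in neuron markers at 0.209% (next 0.0966%). Microglia shScrmbl 4 had C1qb at 5927 CPM (next 3538). The source of these values was not tested.

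The difference between the cell types differed between the viruses for 2 chemokine genes of low counts, in fits that kept more genes than the main one. By edgeR, the interaction of Ccl2 was 6.31 without the filter (adjusted p = 0.00178) and 6.25 with a filter at 5 counts (adjusted p = 0.0125). That of Ccl17 was 4.26 (adjusted p = 0.0114) and 4.19 (adjusted p = 0.0484). The group of monocytes with shXbp1 held 2 libraries.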

How the results depend on the processing

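All 157 called genes kept their direction wherever they were tested under the 29 alternatives. Genes higher in monocytes and in microglia numbered 116 and 59 without the low-count filter, and again 116 and 59 with at least 20 counts and 4 libraries, which kept all 2718 genes. They numbered 17 and 45 with limma on log2(deposited signal + 1), 15 and 24 after thinning to the shallowest library (168 genes tested), 50 and 44 in shScrmbl libraries alone, 16 and 29 in shXbp1 libraries alone, and 49 and 53 in libraries over 20000 counts, an alternative chosen after seeing the data. With the replicate number as a block they numbered 34 and 40, of which 68 were among the 157. In the remaining alternatives beside those that leave out a library, they lay between 54 and 86 and between 76 and 101. Without 1 library at a time they were 36 to 73 and 52 to 88, and the interaction gave 0 each time. The interaction gave 2 genes without the filter, 2 with at least 20 counts and 4 libraries and 2 with a filter at 5 counts, which was chosen after seeing the data, and 0 in the other settings. B2m, not called, was below 0 when thinned (-0.0756), in shScrmbl libraries alone (-0.18) and without monocyte shXbp1 2, with a range of -0.16 to 0.25 over the libraries left out. Ftl1, not called, was so when thinned (-0.0807), in shXbp1 libraries alone (-0.0794), without microglia shScrmbl 1 (-0.02) and without monocyte shXbp1 2, with a range of -0.14 to 0.28. The cause of these shifts was not tested. The labels do not say that same-numbered libraries of the replicate block share a mouse. Their deviations correlated at 0.03, -0.16, 0.01 and -0.11, but with 2 monocyte libraries per virus the deviations of one mirror those of the other, so these values do not settle whether the numbers pair the libraries. Depth limits the comparison, since 3 counts were worth 26.7 to 291 CPM in microglia and 28.9 to 186 CPM in monocytes. Of the 71 genes named as called, 47 were called without each of the 11 libraries, 17 lost the call without at least 1, and 7 were called wherever they were tested but had too few counts without at least 1.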

Other observations

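Several called genes that the comparisons above do not describe were chosen after their values were seen. Lgals1, which encodes the glycan-binding protein galectin-1, had 388, 510 and 1406 CPM in microglia and 2056, 1560, 1862 and 2714 CPM in monocytes, with no overlap (1.69 ± 0.31, edgeR adjusted p = 0.000482). Srgn, the core protein of the proteoglycan that packs granules in blood cells, had 0, 388 and 663 CPM in microglia and 1144, 674, 745 and 2099 CPM in monocytes (1.40, adjusted p = 0.0155). Its call was lost without monocyte shScrmbl 1 or shXbp1 2 (adjusted p up to 0.0853). Lair1, an inhibitory receptor for collagen, went the other way, with 313, 496 and 777 CPM in microglia and 116, 193, 62.1 and 145 CPM in monocytes, again with no overlap (-1.79 ± 0.35, adjusted p = 0.000755). Grn, which encodes the lysosomal protein progranulin, had 1359, 2080 and 2815 CPM in microglia and 1013, 1203, 1055 and 489 CPM in monocytes, with no overlap (-1.10, adjusted p = 0.00603), but was not called in the fit of all shared genes (adjusted p = 0.072).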
